A study of Homo sapiens with 4 samples.

Results

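Chromosome 19 was examined outside its zinc-finger gene clusters, in the peak lists of a CLIP-seq study of SAF-A. A peak was counted when its midpoint lay on chromosome 19 but outside 3 stretches rich in zinc-finger genes, which run from 19800000 to 24600000, from 52400000 to 54000000 and from 56500000 to 59128983 (GRCh37). These peaks numbered 7769 of the 278959 listed in 4 libraries. The 2 input lists held 1288 of 29386 and 1741 of 42256 of them (replicates 1 and 2), and the 2 pull-down lists held 2140 of 96061 and 2600 of 111256. All 4 libraries came from HCT116, an established human colorectal carcinoma line, after ultraviolet crosslinking of living cells and RNase A digestion of the lysate. The pull-downs were immunoprecipitated with an antibody to SAF-A, whereas the inputs were not. RNA of both kinds was taken from the same size range of the blotting membrane, which makes the input a background of matched size. The labels do not say that the replicates are separate cultures, so p-values measure the spread between these libraries only, which may be technical.

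SAF-A, also called hnRNP U, is an abundant nuclear protein that binds RNA and chromatin and belongs to the hnRNP proteins, which coat newly made transcripts. A CLIP-seq peak is a short stretch of a transcript where crosslinked fragments pile up. A peak that is also found in the input can come from an abundant RNA held by any protein of that size. Chromosome 19 is known as the human chromosome with the densest genes, many of them short and broadly expressed. In the RefSeq gene table (GRCh38.p14) it held 1451 protein-coding genes, more than any chromosome except chromosome 1 with 2062, and ranked 1 of 24 chromosomes by genes per length. Peak positions were on another build: 114 of the 8864 chromosome 19 peaks ended past the last chromosome 19 gene of that table. The label of a gene-dense chromosome was therefore checked for the chromosome as a whole and not for single regions, and regions are given by GRCh37 position without gene names.

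The first question was how much of each list lay here. The share of listed peaks was 4.38% (95% Wilson interval 4.15 to 4.62) in input replicate 1 and 4.12% (3.93 to 4.31) in input replicate 2. It was 2.23% (2.14 to 2.32) in pull-down replicate 1 and 2.34% (2.25 to 2.43) in pull-down replicate 2. Both inputs thus lay above both pull-downs. Intervals cover counting error only. The means were 4.25% ± 0.19 and 2.28% ± 0.08 (SD, n = 2 each), so the inputs had 1.86 times the share of the pull-downs, and the log2 ratio (pull-down over input, as throughout) was -0.90. The exact permutation p (two-sided) was 0.333, and no smaller value can be reached with 2 libraries of each kind. The zinc-finger clusters of the same chromosome took 0.50% and 0.42% of the input lists and 0.37% and 0.38% of the pull-down lists, a log2 ratio of -0.31. Chromosomes 16, 17, 20 and 22 together, which are also rich in genes, took 13.15% and 13.16% of the inputs and 10.70% and 10.95% of the pull-downs, a log2 ratio of -0.28. Set against the clusters within each library, the log2 share outside them was lower by 0.60 in the pull-downs, at 3.13 and 3.30 for the inputs against 2.60 and 2.63. Set against the other gene-rich chromosomes it was -1.59 and -1.68 for the inputs against -2.26 and -2.23 for the pull-downs. The exact permutation p was 0.333 for both differences, with the groups apart in each.

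Scaled to the whole list, the input excess grew with the width of the peak. Peaks of under 15 bases numbered 117.4 and 90.4 per 10000 listed peaks for the inputs against 91.0 and 81.3 for the pull-downs, and the groups overlapped. Peaks of 15 to 24 bases numbered 75.9 and 69.3 for the inputs against 55.3 and 58.3 for the pull-downs. Peaks of 25 to 49 bases numbered 53.8 and 67.4 against 26.9 and 35.2. From here on each input held more such peaks than either pull-down by a clear margin. Peaks of 50 to 99 bases numbered 87.8 and 86.6 in the inputs against 27.4 and 31.4, and those of at least 100 bases 103.5 and 98.2 against 22.3 and 27.5. From the narrowest to the widest class, the mean was 1.21, 1.28, 1.95, 2.97 and 4.05 times higher in the inputs (n = 2 each). The exact permutation p was 0.667 for the narrowest class and 0.333 for each of the others. Part of this trend with width was general. Outside the gene-rich chromosomes, peaks of at least 100 bases made up 11.2% and 13.4% of input peaks against 7.80% and 8.88% of pull-down peaks. Among listed peaks of at least 50 bases, 8.65% and 6.96% lay here in the inputs against 3.06% in each pull-down. That share was on average 2.55 times higher in the inputs, against 1.48 times for narrower peaks.

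**Figure D1:**
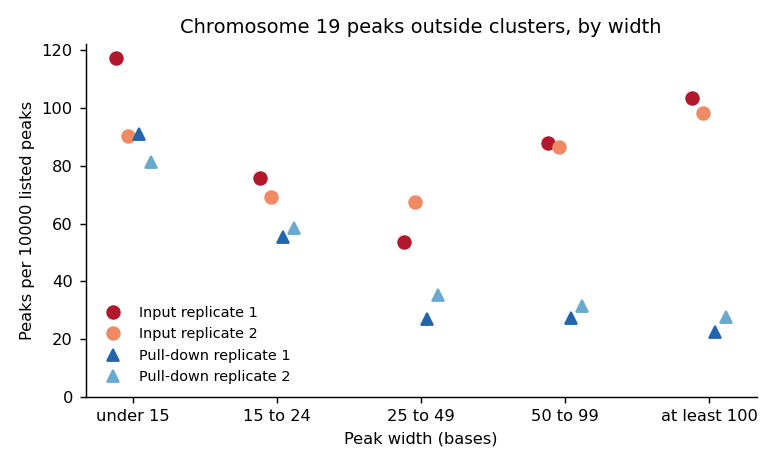
Peaks on chromosome 19 outside the zinc-finger clusters, per 10000 peaks of the list (vertical axis), by peak width in bases (horizontal axis), with 1 point per library. The inputs (circles) and pull-downs (triangles) overlap below 15 bases and lie apart from 15 bases upward, with 103.5 and 98.2 against 22.3 and 27.5 at 100 bases or more. Part of the trend is general, as peaks of 100 bases or more also made up more of the input peaks outside the gene-rich chromosomes.

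Peaks of 50 bases or more are called wide here. They made up 43.6% and 44.9% of the chromosome 19 peaks of the inputs and 22.3% and 25.2% of those of the pull-downs. The means were 44.2% ± 0.9 and 23.7% ± 2.1 (SD, n = 2 each), a difference of -20.5 percentage points (exact permutation p = 0.333). On the chromosomes other than 16, 17, 19, 20 and 22, wide peaks made up 19.5% and 24.3% of input peaks against 15.6% and 18.4% of pull-down peaks. The part of chromosome 19 therefore exceeded those chromosomes by 24.2 and 20.5 percentage points in the inputs and by 6.70 and 6.78 in the pull-downs, which did not overlap (exact permutation p = 0.333). Chromosomes 16, 17, 20 and 22 lay nearer, with 31.7% and 34.9% wide in the inputs against 20.3% and 24.7% in the pull-downs. Over them the excess was 11.9 and 9.94 percentage points for the inputs, but 1.97 and 0.49 for the pull-downs (exact permutation p = 0.333). Wide peaks scored low. Their median score was 14 in input replicate 1 and in each pull-down and 15 in input replicate 2, whereas narrow peaks had medians of 19 and 17 in the inputs and of 21 in each pull-down. The deposited score has no stated meaning. It was used to order peaks within a list, for these medians and to form score classes, and its values may not compare between libraries.

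The second question was which parts of the chromosome carry the excess. Peaks were counted in regions of 1 Mb, cut at the cluster bounds, as peaks per 10000 listed peaks. Of the 49 regions with a peak, 39 had a higher mean in the inputs and 10 a higher mean in the pull-downs. The net excess of input was 196.9 peaks per 10000 listed peaks, of which wide peaks made up 133.8, or 67.9%. The 10 regions with the largest excess held 51.9% of the summed positive excess, so it was spread over many regions. The short arm, with 20 regions, held 66.0% of the net excess, and the 29 regions of the long arm held 34.0%. On the short arm the lists held 245.0 and 230.7 peaks per 10000 for the inputs against 105.2 and 110.6 for the pull-downs. On the long arm they held 193.3 and 181.3 against 117.5 and 123.1. Within each library, the log2 ratio of short to long arm was 0.34 and 0.35 for the inputs against -0.16 and -0.16 for the pull-downs, so in totals the arms changed places between the kinds of library (exact permutation p = 0.333). The arms differ in length, and per Mb the short arm was the denser in all 4 libraries. It held 12.4 and 11.7 peaks per 10000 and Mb for the inputs against 5.32 and 5.58 for the pull-downs, and the long arm 6.93 and 6.50 against 4.21 and 4.41.

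**Figure D2:**
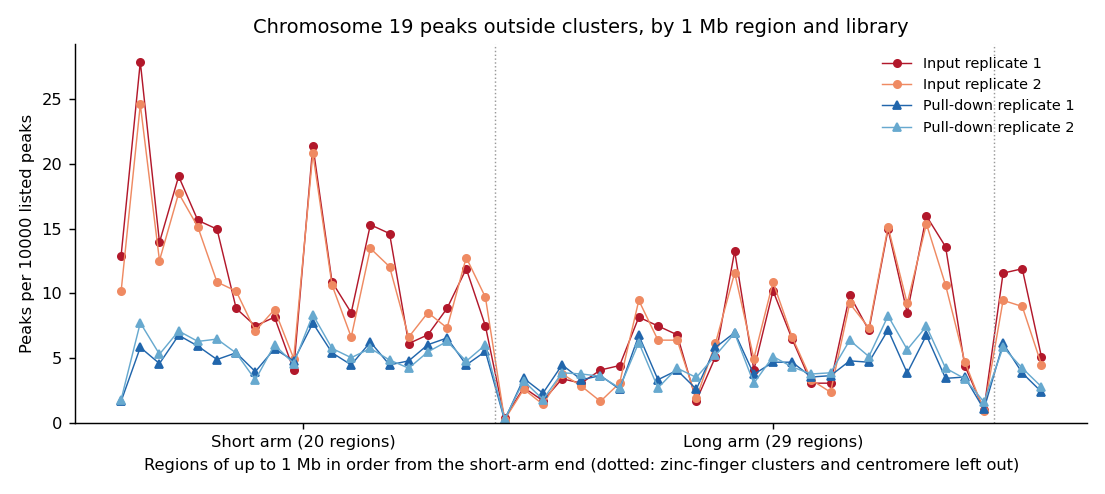
Peaks per 10000 listed peaks (vertical axis) in each of the 49 regions of up to 1 Mb, in order from the end of the short arm (horizontal axis), with 1 line per library. The inputs (circles) reach a mean of 26.3 in the second region, while the pull-downs (triangles) stay at or below a mean of 8.03.

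**Figure D3:**
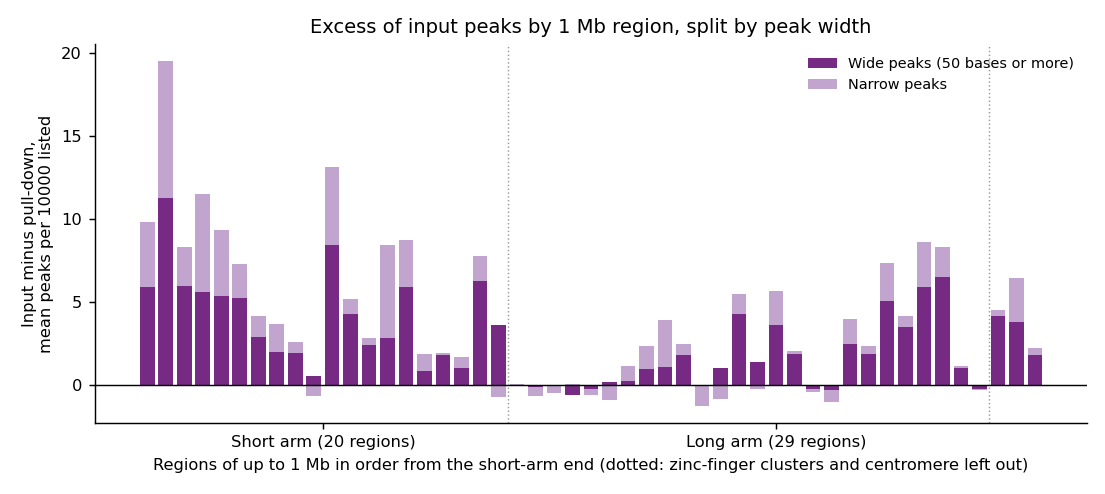
Mean input minus mean pull-down peaks per 10000 listed peaks (vertical axis) in the same regions (horizontal axis), split into wide and narrow peaks. Bars above 0 mark an excess of input, which is tallest in the second region of the short arm at 19.5, and the 10 regions with a net value below 0 lie mostly on the long arm.

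Pull-down levels varied little along the chromosome compared with input levels. Over the 47 regions with enough peaks to be tested, the mean pull-down level ran from 1.73 to 8.03 peaks per 10000, with a median of 4.75. The mean input level ran from 1.56 to 26.3, with a median of 8.46. In limma, fitted over 2776 regions of the genome with a mean of at least 10 peaks, pull-down was lower in 32 of these 47 regions at an adjusted p of 0.05, against 11.2% of all tested regions. It was higher in 1, against 15.9% of all. Both inputs lay above both pull-downs in 37 of the 47 regions, against 23.1% of all, and both pull-downs above both inputs in 7, against 43.0%. The median log2 ratio was -0.80 here and 0.11 over all tested regions, and the ratios of single regions include that general shift. On narrow peaks alone 16 regions were lower and 0 higher (26 differed at an unadjusted p of 0.05), and in lists cut to equal length 19 were lower and 0 higher (28 at an unadjusted p of 0.05). The share of all tested regions called under these settings is not given, so these counts are no comparison with the genome. On chromosomes 16, 17, 20 and 22 pull-down was lower in 58 and higher in 27 of 250 tested regions.

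A stretch with a large excess at the end of the short arm is described next. Its bound at 6 Mb was set by no prior rule and was chosen with the results known. The 6 regions of the first 6 Mb of the short arm were all called lower. Together they held 307 and 385 peaks of the inputs, with 285 and 386 of the pull-downs, or 104.5 and 91.1 against 29.7 and 34.7 per 10000 listed peaks. They carried 33.3% of the net excess. The first region, up to 1000000, listed 38 and 43 peaks for the inputs against 16 and 20 for the pull-downs, so the longer lists held fewer peaks here in absolute number as well. Its log2 ratio was -2.71 (SE 0.18, limma adjusted p = 4.9e-13), the lowest of the 47. The second region, from 1000001 to 2000000, listed 82 and 104 peaks in the inputs against 56 and 86 in the pull-downs. It had the largest excess of all regions, at 26.3 ± 2.3 against 6.78 ± 1.34 per 10000 (SD, n = 2 each), and the log2 ratio was -1.96 with an SE of 0.18 (adjusted p = 3.0e-10 in limma). Wide peaks made up 49.8% and 49.9% of the input peaks of the 6 regions, against 28.1% and 30.8% of the pull-down peaks.

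Of the 8 lowest log2 ratios, 4 fell in these first 6 Mb, 3 elsewhere on the short arm and 1 on the long arm. These regions were picked by the ratio that limma tests, so their p-values are no separate support. The region from 50000001 to 51000000 on the long arm listed 40 and 45 peaks in the inputs against 33 and 47 in the pull-downs, a log2 ratio of -1.66 with an SE of 0.18 (adjusted p = 8.0e-09 in limma). The region from 14000001 to 15000000 listed 43 and 51 peaks in the inputs against 43 and 54 in the pull-downs, with a log2 ratio of -1.51 (SE 0.17). Those from 2000001 to 3000000, from 18000001 to 19000000, from 3000001 to 4000000 and from 10000001 to 11000000 had log2 ratios of -1.43, -1.42, -1.41 and -1.40 (SE 0.17 each), all with limma adjusted p-values between 6.6e-08 and 1.3e-07. The call of the region from 50000001 was lost in lists of equal length (limma adjusted p = 0.056), and that of the region from 18000001 on narrow peaks alone (0.065). The last of the regions named lies beside a region without an excess. From 9000001 to 10000000 the inputs listed 12 and 21 peaks and the pull-downs 46 and 51, or 4.53 ± 0.63 against 4.69 ± 0.14 per 10000 (SD, n = 2 each), and the log2 ratio was 0.03 with an SE of 0.18 (adjusted p = 0.94 in limma). In the next megabase the inputs listed 63 and 88 peaks and the pull-downs 74 and 93, or 21.1 ± 0.4 against 8.03 ± 0.46. Across that border the input level rose far more than the pull-down level.

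The excess was missing from a block next to the centromere on the long arm, which was picked out after its values were seen. Its 6 regions, from 27000001 to 33000000, held 45 and 53 input peaks, or 15.3 and 12.5 per 10000, and 167 and 184 pull-down peaks, or 17.4 and 16.5. Both pull-downs lay above both inputs, and the net excess was -3.03. Of the 5 that could be tested, 0 were called in limma in either direction, while the log2 ratios lay between 0.17 and 0.42 (0 at an unadjusted p under 0.05). Wide peaks were few, at 4.44% and 3.77% of the input peaks and 8.38% and 9.78% of the pull-down peaks. The regions from 38000001 to 39000000 and from 43000001 to 44000000 had log2 ratios of -0.05 and 0.15 (SE 0.17 and 0.19, limma adjusted p = 0.87 and 0.59). The single region called higher in the pull-downs ran from 37000001 to 38000000. It listed 5 and 8 peaks in the inputs against 25 and 39 in the pull-downs, with 1.80 ± 0.14 against 3.05 ± 0.64 per 10000 (SD, n = 2 each) and a log2 ratio of 0.66 with an SE of 0.23 (adjusted p = 0.030 in limma). That call rested on few input peaks. It was lost without pull-down replicate 1 (limma adjusted p = 0.135), without pull-down replicate 2 (0.56), with each library centred on its median region (0.061) and on narrow peaks alone (0.096).

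**Figure D4:**
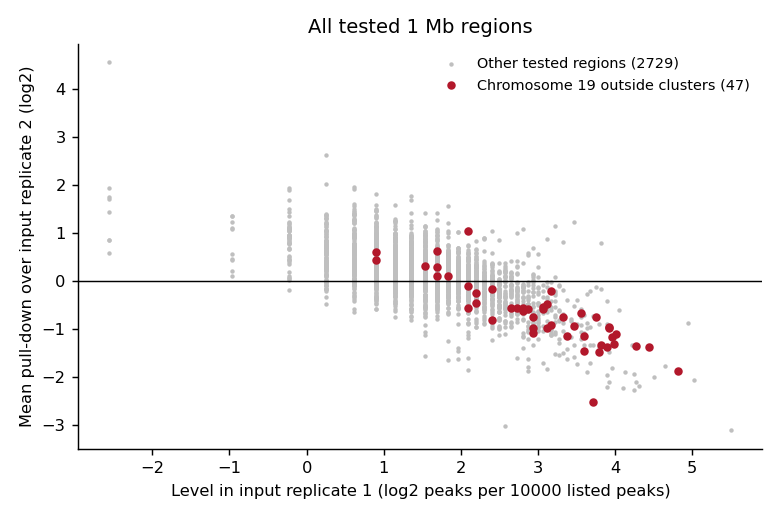
All 2776 tested regions of 1 Mb, with the level in input replicate 1 (log2 peaks per 10000 listed peaks, horizontal axis) and the log2 ratio of mean pull-down over input replicate 2 (vertical axis). The 47 chromosome 19 regions (red) fall with the level as the other regions (grey) do, and 13 of them lie at a level of 12 or more peaks per 10000. At a level of 4 to 8 they lie lower than the others, with a median of -0.57 against -0.18.

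Regions of other chromosomes showed a low ratio too where their input level was high. To keep the level and the ratio from sharing a library, the level was taken from input replicate 1 and the log2 ratio from both pull-downs over input replicate 2. At a level of at least 12 peaks per 10000 the median log2 ratio was -1.35 in the 13 regions of chromosome 19 outside the clusters and -1.34 in the 38 other regions. At 8 to 12 it was -0.83 in 12 regions and -0.72 in 79 others, and at 4 to 8 it was -0.57 in 15 regions and -0.18 in 657 others. Below 4 it was 0.31 in 7 regions and 0.27 in 1955 others. At 4 to 8 the chromosome 19 regions lay lower than the others, with quartiles of -0.70 and -0.35 and 14 of 15 below 0, against quartiles of -0.48 and 0.09. Of the chromosome 19 regions 27.7% were at 12 or more, against 1.39% of the others. These medians are descriptions chosen after the data were seen, and they were not tested.

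The replicates gave like profiles. Across the 47 regions, the log2 ratio from the replicate 1 libraries and that from the replicate 2 libraries had a Pearson r of 0.88 and a Spearman rho of 0.88. The points share their regions and no library. Both ratios were below 0 in 37 regions, both above 0 in 7 and of mixed sign in 3. Wide and narrow peaks of the same 4 libraries gave ratios with a Pearson r of 0.59 and a Spearman rho of 0.65 across these regions. Ratios of both widths were below 0 in 35 regions, above 0 in 4 and mixed in 8.

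In steps of 100 kb, 464 windows held at least 1 peak, and 299 had a higher mean in the inputs. The excess was again spread out, since the 48 windows with the largest excess made up 50% of its positive sum and 117 made up 80%. Of the 148 windows with a mean of at least 5 peaks, limma called 92, against 34.2% of the 2515 windows tested in the genome. Pull-down was lower in 91, against 27.1% of all, and higher in 1, against 7.08%. Both inputs lay above both pull-downs in 116, against 43.3% of all, and both pull-downs above both inputs in 6, against 26.4%. The median log2 ratio was -1.19 here and -0.37 over all tested windows. These calls depended on single libraries. Without input replicate 1 limma called 0 windows, here and in the whole genome, although 98 of 180 tested windows had an unadjusted p under 0.05. Without input replicate 2 it called 51, without pull-down replicate 1 it called 60 and without pull-down replicate 2 it called 63. With each library centred on its median window, 65 were lower and 2 higher. Apart from the 0, the share of all windows called in the same fit is not given. These counts are thus no comparison with the genome. The 91 lower windows, 19.6% of the length of all windows with a peak, held a net excess of 158.1 per 10000 listed peaks.

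The 10 windows with the largest excess all lay on the short arm, and all were called lower in limma. They were picked by the difference that limma tests, in the same libraries. Their calls and p-values are therefore no separate support. Largest was the window from 1200001 to 1300000, with 14 and 22 peaks for the inputs against 2 and 5 for the pull-downs. That is 4.99 ± 0.31 against 0.33 ± 0.17 per 10000 listed peaks (SD, n = 2 each), and the log2 ratio was -3.84 with an SE of 0.34 (adjusted p = 1.4e-04 in limma). The window from 500001 to 600000 listed 14 and 17 peaks in the inputs against 4 and 3 in the pull-downs, a log2 ratio of -3.56 with an SE of 0.30 (adjusted p = 1.2e-04 in limma). In both windows the much longer pull-down lists held fewer peaks than either input. Both windows reached the minimum mean of 5 peaks through their inputs. The window from 13000001 to 13100000 listed 16 and 18 against 7 and 7, and that from 1000001 to 1100000 listed 16 and 16 against 6 and 7, with log2 ratios of -2.77 and -2.79. The window from 3900001 to 4000000 had the most input peaks of the 10, with 20 and 23, but also 19 and 20 in the pull-downs. Its ratio was the nearest to 0 among the 10, at -1.69 (SE 0.24, limma adjusted p = 6.9e-04). The others began at 10700001, 10200001, 14200001, 11500001 and 5600001, with log2 ratios from -2.51 to -2.02, and the call of the one from 14200001 was lost in lists of equal length (limma adjusted p = 0.12). They listed 11 to 15 peaks in input replicate 1 and 12 to 21 in input replicate 2, against 7 to 10 and 5 to 13 in the pull-downs.

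Input peaks of these windows tended to lie on a single strand. In 7 of these 10 windows at least 80% of the input peaks shared a strand. That strand was picked from the same peaks. The share was not counted in other windows, so it cannot be called particular to these 10. All 43 input peaks from 3900001 to 4000000 were on the minus strand, and 34 of 36 from 1200001 to 1300000 were on the plus strand. The strand was also carried over between libraries. In 131 tested windows the strand with more peaks was taken from input replicate 1 and looked up in the other lists. It held 76.0% (95% Wilson interval 73.4 to 78.5) of 1079 peaks of input replicate 2, 64.4% (61.3 to 67.3) of 985 peaks of pull-down replicate 1 and 65.9% (63.2 to 68.5) of 1233 peaks of pull-down replicate 2. In the 84 such windows called lower the values were close to these, at 78.0%, 63.0% and 64.4%. Pull-down peaks thus followed the strand of the input peaks less closely than the second input did in these lists. The intervals treat peaks as independent, whereas peaks of a window tended to share a strand, so they understate the counting error. As input replicate 1 set the strand, 1 input was left for the comparison and no test over samples was made.

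The third question was where pull-down sites occur that both replicates share and neither input lists. Peaks of both pull-downs that overlapped by at least 1 base on the same strand gave 1286 sites. Of these, 658, or 51.2% (95% Wilson interval 48.4 to 53.9), had no input peak on the same strand. The share was 54.0% (47.7 to 60.3) of 235 sites in the zinc-finger clusters, 55.3% (54.0 to 56.5) of 6281 sites on chromosomes 16, 17, 20 and 22 and 57.3% (56.9 to 57.8) of 55166 sites elsewhere. The interval overlaps that of the clusters and lies below those of the other chromosomes. The input lists are shorter than the pull-down lists. In lists cut to the 29386 best-scoring peaks, 66 of 349 sites were input-free, or 18.9% (15.1 to 23.3), and 21.9% (21.2 to 22.6) were so elsewhere, with overlapping intervals. The 66 sites lay in 31 regions of 1 Mb and 55 windows of 100 kb.

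Input-free sites were present along the whole chromosome rather than in a few places. Each of the 49 regions of 1 Mb held at least 1, with a median of 13 and at most 27. They numbered 13.8 per Mb on each arm, with 273 on the short arm and 385 on the long arm. The first 6 Mb held 72, or 12 per Mb, and the block from 27000001 to 33000000, without an input excess, held 71, or 11.8 per Mb. Set against all reproducible pull-down sites, the same numbers were 45.9% of 157 sites in the first 6 Mb and 60.2% of 118 in the block, and by arm 47.1% of 580 on the short arm and 54.5% of 706 on the long arm. Input-free sites were thus equally dense per Mb but made up a smaller share of the sites where the input excess was larger. The smaller share follows in part from the definition, since more listed input peaks leave fewer sites that can be input-free. No conclusion is drawn from it. In steps of 100 kb, 325 of 464 windows held an input-free site and 15 held at least 5. The windows called lower held 155 such sites, in 72 of 91 windows. The median distance from an input-free site to the nearest input peak of the same strand was 19307 bases, and 421 sites, or 64.0%, lay over 10 kb away.

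**Figure D5:**
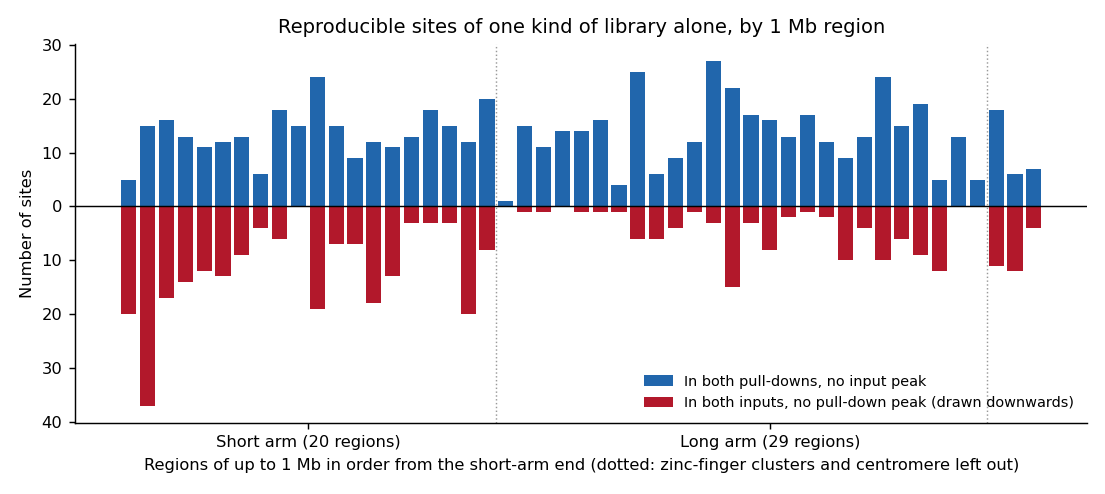
Number of sites (vertical axis) found in both pull-downs without an input peak (upward bars) and in both inputs without a pull-down peak (downward bars) in the same 49 regions (horizontal axis). Upward bars occur in every region and reach 27, while downward bars are longest near the short-arm end, with 37 in the second region.

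The 1 Mb region with the most input-free sites, 27 of 38, ran from 38000001 to 39000000. Among windows of 100 kb, the most were found from 39100001 to 39200000. Here the pull-downs listed 15 and 21 peaks and the inputs 5 and 7, or 1.72 ± 0.23 and 1.68 ± 0.03 per 10000 (SD, n = 2 each), and held 8 input-free sites, 7 of them on the plus strand. Its share of the lists was thus nearly equal in both kinds of library, and the log2 ratio was -0.05 with an SE of 0.25 (adjusted p = 0.91 in limma). The 5 windows that followed held 7 sites each. From 38400001 to 38500000, the pull-downs listed 11 and 16 peaks and the inputs 1 and 2. It was the single window called higher, and the log2 ratio was 1.28 with an SE of 0.35 (adjusted p = 0.020 in limma), and this call was lost without input replicate 1 (limma adjusted p = 0.096), without pull-down replicate 1 (0.17), with precision weights (0.052) and on narrow peaks alone (0.20). From 19500001 to 19600000 the pull-downs listed 12 and 14 peaks and the inputs 0 and 4, and from 34700001 to 34800000 they listed 11 and 10 against 0 and 4. The second input alone listed peaks in these windows. Neither passed the test (limma adjusted p = 0.11 and 0.20). Without input replicate 2 the values were 0.031 and 0.033, but that leaves 1 input with a count of 0, whose spread is taken from the pull-downs, and gives no support to a call.

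A high number of input-free sites also occurred beside an excess of input. From 54900001 to 55000000 the pull-downs listed 10 and 12 peaks and the inputs 9 and 9, and all 7 of its reproducible pull-down sites were input-free. All 6 of its reproducible input sites were without a pull-down peak, were wide and lay on the plus strand, whereas 3 of the 7 pull-down sites lay on the minus strand. It was called lower, and the log2 ratio was -1.28 with an SE of 0.27 (adjusted p = 0.0054 in limma). The call was lost when any of 3 libraries was left out, with adjusted p-values of 0.090 without input replicate 1, 0.053 without pull-down replicate 1 and 0.051 without pull-down replicate 2 in limma. On narrow peaks alone the log2 ratio was 0.68. Pull-down and input thus listed different sites within the same 100 kb. The window from 34800001 to 34900000 had 6 input-free sites with 9 and 15 input peaks. It was called lower, but not without input replicate 2 (adjusted p = 0.062 in limma). The window from 38700001 to 38800000 had 6 such sites with 5 and 6 input peaks, and the window from 47600001 to 47700000 had 7 with 6 and 7 input peaks. Only 24 windows held an input-free site and 0 input peaks. They held 48 sites in all, at most 5 each, in the windows from 11900001 to 12000000 and from 28500001 to 28600000.

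Ranked by score over the whole of each list, few input-free sites here were among the best. Input-free sites elsewhere were not ranked for comparison, so this cannot be called particular to chromosome 19. Elsewhere too, pull-down peaks with high scores more often had an input peak, as given below. Best placed was chr19:18912690-18912712 on the minus strand, 23 bases long, with scores of 260 and 253 and ranks of 419 and 464 in the pull-downs. Its nearest input peak on that strand was 20601 bases away. The second, of 35 bases on the minus strand at chr19:10785303-10785337, ranked 90 in replicate 1 and 2221 in replicate 2, with an input peak 1634 bases away. The next were sites of 35 bases at chr19:2892606-2892640 (plus strand, ranks 2996 and 2083), of 27 bases at chr19:41956376-41956402 (minus strand, 3501 and 4746), of 29 bases at chr19:8646040-8646068 (minus strand, 852 and 8420) and of 26 bases at chr19:32253019-32253044 (plus strand, 9013 and 2544). All 6 were narrow, between 23 and 35 bases. The median mean rank of the 658 sites was 57068. The median width of input-free sites was 19 bases, and 161 of them, or 24.5%, were wide.

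Sites of the reverse kind were densest where the input excess was largest. This is in part so by definition, as such sites are input peaks that count towards the excess. Both inputs shared 857 sites here, of which 367, or 42.8% (95% Wilson interval 39.6 to 46.2), had no pull-down peak. The share was 25% (17.7 to 34.1) of 104 sites in the clusters, 30.4% (28.7 to 32.1) of 2814 sites on chromosomes 16, 17, 20 and 22 and 17.3% (16.8 to 17.9) of 19028 sites elsewhere. In lists of equal length it was 58.9% (55.3 to 62.4) here and 32.4% (31.7 to 33.1) elsewhere. The parts most like it lay between, with 45.8% (36.2 to 55.8) in the clusters and 46.0% (44.0 to 47.9) on chromosomes 16, 17, 20 and 22. The interval here overlaps that of the clusters. Of the 367 sites, 284, or 77.4%, were wide, and their median width was 98 bases. Among input sites that a pull-down also listed, the median width was 21 bases and 30.8% were wide. The 367 pull-down-free sites were unevenly placed, with 11.8 per Mb on the short arm and 4.80 per Mb on the long arm, 18.8 per Mb in the first 6 Mb and 0.67 per Mb from 27000001 to 33000000. The second region alone held 37. In 12 regions of 1 Mb they outnumbered the input-free pull-down sites, and in 36 they were fewer. The windows with the most were those from 1200001 to 1300000 with 12, from 13000001 to 13100000 with 10, from 500001 to 600000 with 9, from 1400001 to 1500000 with 7 and from 1000001 to 1100000 with 6. The first of these held 0 sites shared by both pull-downs, and 11 of its 12 sites were on the plus strand.

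Looked up peak by peak, input peaks were found in a pull-down less often here than elsewhere. Of the input peaks, 45.2% (95% Wilson interval 42.5 to 47.9) and 43.0% (40.7 to 45.4) had a peak in either pull-down, against 74.5% (74.0 to 75.1) and 70.8% (70.3 to 71.2) on the chromosomes other than 16, 17, 19, 20 and 22. On chromosomes 16, 17, 20 and 22 it was 58.0% (56.5 to 59.6) and 56.4% (55.1 to 57.8), between the other values. Against the remaining chromosomes the difference held for narrow peaks, with 60.6% and 59.0% against 82.7% and 81.1%, and for wide peaks, with 25.3% and 23.4% against 40.6% and 38.6%. Among pull-down peaks, 32.4% (30.4 to 34.4) and 29.6% (27.9 to 31.4) had an input peak here, against 29.8% (29.5 to 30.2) and 26.6% (26.3 to 26.9). The difference from the remaining chromosomes varied with the score. At a score of 10 to 14, 15% (12.6 to 17.7) and 13.4% (11.4 to 15.8) had an input peak, against 9.2% (8.9 to 9.6) and 7.7% (7.4 to 8.0). At 15 to 24 it was 26.1% (22.7 to 29.8) and 25.8% (22.7 to 29.1) against 21.3% (20.8 to 21.8) and 18.0% (17.6 to 18.5). At 25 to 49 it was 47.9% (43.4 to 52.4) and 41.2% (37.1 to 45.4) against 45.5% (44.8 to 46.2) and 41.7% (41.0 to 42.3), with overlapping intervals. At a score of 50 to 99 the share was lower here, at 58.1% (51.8 to 64.1) and 58.8% (53.0 to 64.3) against 66.0% (65.1 to 67) and 63.1% (62.2 to 64.1), with overlapping intervals in replicate 2. At 100 or more it was 65.7% (55.9 to 74.3) and 58.2% (48.8 to 67) against 68.7% (67.2 to 70.2) and 66.3% (64.8 to 67.8), with overlapping intervals in both. On chromosomes 16, 17, 20 and 22 the shares were, from the lowest to the highest score class, 10.8%, 23.3%, 44.6%, 60.1% and 60.3% in replicate 1. In replicate 2 they were 9.5%, 19.2%, 42.4%, 58.6% and 57.5%. From a score of 25 upward their intervals overlap those here in both replicates. The share of peaks found in the other replicate of the same kind was close to that of the other gene-rich chromosomes in 3 of 4 libraries. In the inputs 66.7% (64.1 to 69.2) and 49.4% (47.1 to 51.7) were found again, against 73.0% (71.6 to 74.4) and 50.9% (49.6 to 52.2) on chromosomes 16, 17, 20 and 22 and 79.1% and 54.9% on the remaining ones. In the pull-downs it was 60.1% (58.1 to 62.2) and 49.5% (47.5 to 51.4), against 61.2% (60.3 to 62.1) and 51.7% (50.8 to 52.6) and against 66.3% and 57.5%. The intervals here overlap those of chromosomes 16, 17, 20 and 22 except in input replicate 1. No test over samples was made of these shares.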

How the data were processed

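SAF-A CLIP-seq peaks were analysed in 2 input and 2 pull-down libraries of HCT116 cells. Per the submitters' processing notes, STAR, featureCounts and the GRCh38 build were used. Which program called the peaks is not given in the sources used here. Lists were deposited by the authors, 1 per library, so peaks were called per sample, with start and end positions in bases and a whole-number score of at least 10 deposited by the authors without a stated meaning. Read depth is unknown, because the values are peaks and not reads. Positions were taken as GRCh37 and are printed 1-based.

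Peaks were assigned by midpoint to regions of 1 Mb or windows of 100 kb, on both strands together. Counts plus 0.5 were divided by the list length and tested as log2 values in limma 3.58.1 (R 4.3.3, lmFit and eBayes with a mean trend, 1 variance per region) over the genome, with a minimum mean of 10 or 5 peaks and Benjamini-Hochberg adjustment at 0.05. The minimum counts pull-down peaks too, so it favours regions that are high in the longer lists. A window that is high in the inputs alone can pass it as well. The fit was tested on simulated data. Width classes, level classes, strand comparisons and the stretches bounded at 6 Mb and at 27 and 33 Mb were added after the data were seen. Single values were compared by exact permutation. The members, the windows and the rule for named windows were chosen with earlier results of these data known. Named were the 8 lowest called regions, all higher ones and the 3 nearest to 0; the windows with the largest excess (10), the most input-free (8) and pull-down-free sites (5); and the 6 best-ranked input-free sites. The 5 windows with the largest pull-down excess are given in part with the additional observations.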

Additional observations from a re-analysis of the deposited data

How the results depend on the processing

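The share of the lists and the share of wide peaks kept their direction under every alternative run. The log2 ratio of the share ran from -1.35 (wide peaks) to -0.57 (narrow peaks), and the difference in wide peaks from -30.8 to -12.8 percentage points. Regions of 1 Mb called numbered 33, and in separate fits 19 in lists of equal length (18 of them among the 33), 16 on narrow peaks (16) and 22 to 38 with a library left out (22 to 33). Windows of 100 kb called numbered 92, and in separate fits 20 in lists of equal length (20 of them among the 92), 10 in the better-scoring 50% (9), 25 on narrow peaks (24), 18 on wide peaks (18), 23 at a minimum mean of 10 peaks (23) and 0 to 63 with a library left out (0 to 62). A library left alone in its group is assumed to vary like the other group. Fewer windows were tested in the first 5 of these (33, 21, 60, 23 and 28, against 148). The share of all tested regions or windows called in each separate fit is not given, so these counts do not compare the chromosome with the genome. The cause of the 0 without input replicate 1 was not tested. Input-free sites numbered 66 in lists of equal length, 308 in the better-scoring 50% and 720 to 1831 with a library left out. Pull-down-free input sites numbered 166 in the better-scoring 50% and 398 to 992 with a library left out. With a library of the same kind left out, a site needs only 1 list, which raises the number by construction. The window from 54900001 turned to 0.68 on narrow peaks. Of the other values of single named regions and windows, 156 and 198 kept their direction and side of the threshold, 7 and 21 no longer passed it, and 10 of windows newly passed it. The main fit did not pair libraries by replicate number, and the labels do not say whether same-numbered libraries belong together. Deviations of same-numbered libraries had a correlation of 0.05. With 2 libraries of each kind this cannot decide whether they are paired. The replicate block gave 35 regions and 100 windows called, against 33 and 92 without it. Of the windows named above, the block also called those from 19500001 and 34700001 higher. Few peaks per 100 kb limit the precision of single windows.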

Other observations

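The window from 44200001 to 44300000 had 7 and 10 peaks from the pull-downs against 1 and 0 from the inputs, the window from 5500001 to 5600000 had 10 and 9 against 1 and 1, and the window from 48000001 to 48100000 had 5 and 7 against 0 and 0. They held 2, 3 and 2 input-free sites. The first and last had too few peaks to be tested, and the second had a log2 ratio of 1.18 with an SE of 0.48 (adjusted p = 0.084 in limma).

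On the long arm 59.3% and 57.7% of the input peaks lay on the plus strand, against 52.1% and 54.4% of the pull-down peaks. On the short arm the shares were 49.6% and 49.9% for the inputs against 50.9% and 51.4% for the pull-downs. The exact permutation p was 0.333 for each arm.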
